A study of Sus scrofa with 2 samples.

Results

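The 10 genes described here encode the enzymes that release arachidonic acid from membranes, turn it into prostanoids and inactivate the products. They were chosen by name: PLA2G4A, PTGS1, PTGS2, PTGES, PTGES2, PTGES3, AKR1B1, PTGIS, TBXAS1 and HPGD. Each was matched through its symbol to 1 of the 25880 gene identifiers in the table, so all 10 were measured. PSI is a smooth muscle clone grown from the ileum of the pig, the segment of small intestine next to the colon. RNA-seq was done on 2 libraries of this clone, both from cells kept in DMEM with 10% fetal bovine serum and 1% antibiotics. There was 1 group only, with no treatment, no tissue and no second cell type to set it against. The line is a single clone, and the labels name no separate cultures, so an SD over the 2 libraries may be technical.

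Prostanoids are short-lived lipid signals made where they act. A phospholipase frees arachidonic acid, a cyclooxygenase converts it to the common precursor prostaglandin H2, and a terminal synthase fixes which product is formed. In the gut wall these products contract or relax smooth muscle according to the receptor they meet, and prostaglandin E2 and prostacyclin also act in inflammation.

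Levels were deposited as FPKM, fragments per kilobase of gene model scaled to the library total, which allows different genes to be set side by side. Library totals were worked out from steps in the low FPKM values and the RefSeq lengths of mitochondrial genes. They were 35176565 and 32217729 reads or read pairs for replicates 1 and 2, and the 10 genes held 21183 and 19100 recovered reads. Of the 9 smooth muscle markers listed for the cell label, 7 reached 1 FPKM in both libraries, or 77.8%. The share was 61.5% for identifiers with a symbol, so the count by itself says little about the label. ACTA2, smooth muscle alpha-actin, had 693 ± 11.8 FPKM and ACTG2, the visceral gamma-actin, 479 ± 15.0 FPKM (SD, n = 2 each). MYOCD, the smooth muscle coactivator, was listed at 0, and the identifier with the symbol MYH11, a myosin heavy chain of smooth muscle, had 0.491 ± 0.0433 FPKM.

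Transcripts for each step from membrane lipid to prostaglandin E2 were present: a cytosolic phospholipase, the inducible cyclooxygenase and 2 of the 3 prostaglandin E synthases had means between 20.3 and 97.7 FPKM. The constitutive cyclooxygenase and the prostacyclin and thromboxane synthases stood near or under 1 FPKM, and the gene for the inactivating dehydrogenase was listed at 0. In all, 6 of the 10 genes reached 1 FPKM in both libraries, against 40.9% of all identifiers and 61.5% of identifiers with a symbol. A share of 60% is close to the share for named genes, so the count by itself does not set the enzymes apart. A mean of 10 FPKM or more was reached by 5 of the 10 genes, against 21.7% of all identifiers. The share of identifiers with a symbol was not computed at this level, so this contrast is not like for like. The median of the 10 genes was 3.60 on the log2(FPKM + 1) scale, against 0.22 for all identifiers and 2.29 for those with a symbol. In RNA from a bulk culture, fewer cells with a transcript and less of it per cell cannot be told apart.

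**Figure D1:**
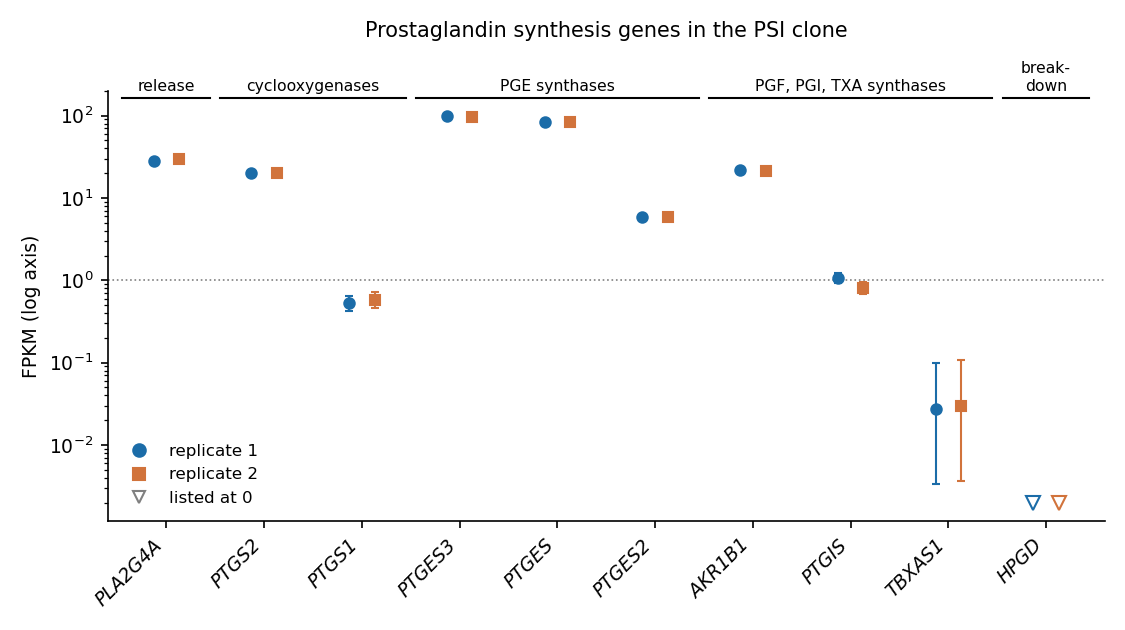
FPKM of the 10 genes in replicate 1 (circles) and replicate 2 (squares) on a log axis, ordered by step of the pathway, with 95% exact Poisson intervals of the recovered reads as bars and the dotted line at 1 FPKM. Open triangles mark the gene listed at 0. PLA2G4A, PTGS2, AKR1B1 and the 3 prostaglandin E synthase genes lie above 5 FPKM in both libraries, and PTGS1, TBXAS1 and HPGD lie below 1 FPKM in both.

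Release of arachidonic acid is represented by PLA2G4A, the cytosolic phospholipase A2 that responds to calcium and to phosphorylation. It had 28.0 FPKM in replicate 1 and 30.0 FPKM in replicate 2, from 2713 and 2662 recovered reads. The mean of 29.0 ± 1.41 FPKM (SD, n = 2) put it above 91.1% of all identifiers. Its identifier is ENSSSCG00000023351, and the RefSeq annotation of Sscrofa11.1 places the protein-coding gene on chromosome 9 from 127853581 to 128164825.

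The cyclooxygenases carry out the committed step, PTGS1 as the form present in many resting tissues and PTGS2 as the form induced by serum, growth factors and cytokines. PTGS2 had 20.3 FPKM in each library, from 3974 and 3632 reads. PTGS1 had 0.528 FPKM in replicate 1 and 0.584 FPKM in replicate 2, from 86 and 87 reads. PTGS2 was thus the main cyclooxygenase transcript, with 97.5% and 97.2% of the summed FPKM of both genes in replicates 1 and 2. The ratio of PTGS2 over PTGS1 was 38.5 in replicate 1 and 34.8 in replicate 2, a mean of 36.6 ± 2.63-fold (SD, n = 2). On the log2(FPKM + 1) scale, which compresses values near and under 1 FPKM, the difference was 3.78 ± 0.038. This ratio was not tested, since an exact two-sided sign-flip test over 2 libraries cannot give a p below 0.5. The ranges of the genes over the libraries did not overlap.

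PTGS2 is ENSSSCG00000015579 and lies on chromosome 9 from 127850164 to 127858866, and PTGS1 is ENSSSCG00000005533 and lies on chromosome 1 from 262456106 to 262482159. The RefSeq models of PTGS2 and PLA2G4A overlap by 5286 bases. HTSeq by its usual settings leaves out reads that fall in more than 1 gene model, and counting without strand could assign reads of one gene to the other. Whether the models used by the authors overlap is not known. If they do, both values are uncertain to that extent. PTGS2 is also known as COX-2. The symbol COX2 in the same table is the mitochondrial cytochrome oxidase subunit, a different gene with 1575 and 1548 FPKM in replicates 1 and 2.

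Among the terminal enzymes, the prostaglandin E synthase genes PTGES3 and PTGES had the highest levels, and the third, PTGES2, lay below AKR1B1. PTGES3, the cytosolic synthase that is better known as the HSP90 co-chaperone p23, had 99.8 and 95.6 FPKM in replicates 1 and 2, the highest level of the 10 genes. PTGES, the inducible membrane synthase that works with PTGS2 in inflamed tissue, had 84.4 and 82.8 FPKM. PTGES2, a membrane-associated synthase of constitutive expression, had 5.86 and 5.89 FPKM. PTGES3 therefore held 52.5% and 51.9% of the summed FPKM of the 3 genes in replicates 1 and 2, PTGES held 44.4% and 44.9%, and PTGES2 held 3.09% and 3.19%. The mean was 97.7 ± 2.97 FPKM for PTGES3, 83.6 ± 1.07 for PTGES and 5.88 ± 0.018 for PTGES2 (SD, n = 2 each). Since p23 also serves HSP90, the level of PTGES3 is not specific to prostanoids. Without PTGES3, the terminal synthase genes were PTGES, PTGES2, AKR1B1, PTGIS and TBXAS1. PTGES held 74.5% and 74.9% of their summed FPKM in replicates 1 and 2. This share rests on the gene models. AKR1B1 had more recovered reads than PTGES, 4474 and 3951 against 1730 and 1556, at a shortest length of 5822 against 583 bases.

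PTGES3 exceeded PTGES 1.17 ± 0.020-fold and PTGES exceeded PTGES2 14.2 ± 0.225-fold (SD, n = 2 each). Both ratios depend on the gene models, and so do the order of the 10 genes and the lead of PTGES over genes with longer models. The shortest model length that gave whole reads was 1954 bases for PTGES3. For PTGES it was 583 bases, with 1730 and 1556 reads in replicates 1 and 2. For PTGES2 it was 5561 bases, with 1147 and 1055 reads. The shortest length for PTGES2 is 98.7% of the RefSeq gene span of 5632 bases, and that for PTGES is 4.59% of its span of 12697 bases. The models themselves may be longer. A model that covers introns or misses exons changes FPKM, and the authors' models were not analysed here. PTGES3 (ENSSSCG00000000406) lies on chromosome 5 from 22000335 to 22022830. PTGES (ENSSSCG00000005688) and PTGES2 (ENSSSCG00000022655) lie on chromosome 1, from 269911785 to 269924481 and from 268585725 to 268591356.

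AKR1B1, the aldose reductase that also makes prostaglandin F2 alpha, had 21.8 FPKM in replicate 1 and 21.1 FPKM in replicate 2, from 4474 and 3951 reads. Its mean of 21.5 ± 0.553 FPKM was 1.06 ± 0.026-fold that of PTGS2 (SD, n = 2 each). This small difference also depends on the gene models. RefSeq places AKR1B1 (ENSSSCG00000040608) on chromosome 18 from 14593516 to 14752316, a span that overlaps an annotated pseudogene over 1329 bases. Aldose reductase also serves glucose metabolism, so its transcript level is not specific to prostanoids.

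PTGIS, the prostacyclin synthase typical of vascular cells, had 1.07 FPKM in replicate 1 and 0.811 FPKM in replicate 2, from 198 and 137 reads. Because it lay on both sides of 1 FPKM it was not counted among the 6, and its 95% exact Poisson intervals of 0.929 to 1.23 and 0.681 to 0.959 FPKM overlapped. TBXAS1, the thromboxane synthase of platelets and macrophages, had 0.0276 and 0.0301 FPKM from 2 reads in each library. Its intervals ran from 0.0033 to 0.0996 FPKM in replicate 1 and from 0.0036 to 0.109 FPKM in replicate 2. PTGIS over TBXAS1 was 39.0 in replicate 1 and 27.0 in replicate 2, ratios that rest on those 2 reads. PTGES exceeded PTGIS 78.6-fold in replicate 1 and 102-fold in replicate 2, and PTGS2 exceeded PTGIS 19.0-fold and 25.0-fold.

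PTGIS (ENSSSCG00000007463) lies on chromosome 17 from 51153151 to 51200515 and overlaps an annotated pseudogene over 3016 bases. TBXAS1 (ENSSSCG00000016504) lies on chromosome 18 from 9717291 to 9886699, 4.71 Mb from AKR1B1, and overlaps an annotated long non-coding RNA over 154676 bases. Since the strand setting is not given, the reads of TBXAS1 could belong to that RNA.

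HPGD, the dehydrogenase that starts the breakdown of prostaglandins, was listed at 0 in both libraries. A total of 36.9% of all identifiers were also listed at 0 in both. Its identifier is ENSSSCG00000009699, and RefSeq places it on chromosome 14 from 15718261 to 15773534, overlapping a pseudogene over 2978 bases. Its gene length could not be recovered without reads, and no upper limit is given. A 0 in this table does not show that a gene is silent. Of 44 ribosomal protein genes, 2 (RPL29 and RPS27A) were listed at 0 in both libraries, as was the mitochondrial gene ATP8.

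In the order of mean levels, PTGES3 came first, followed by PTGES, PLA2G4A, AKR1B1, PTGS2, PTGES2, PTGIS, PTGS1, TBXAS1 and HPGD. The means covered a 3389-fold range between PTGES3 and TBXAS1, the lowest gene with reads. None of the 9 neighbouring pairs had overlapping ranges over the 2 libraries. In 2 of the 8 pairs where both genes had reads, AKR1B1 with PTGS2 and PTGIS with PTGS1, the 95% counting intervals overlapped in replicate 2 but not in replicate 1. In replicate 1 the interval was 21.2 to 22.5 FPKM for AKR1B1 and 19.7 to 21.0 for PTGS2, and 0.929 to 1.23 for PTGIS and 0.423 to 0.653 for PTGS1. These intervals cover counting error alone, and not error in the lengths of the gene models, on which the order also rests.

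**Figure D2:**
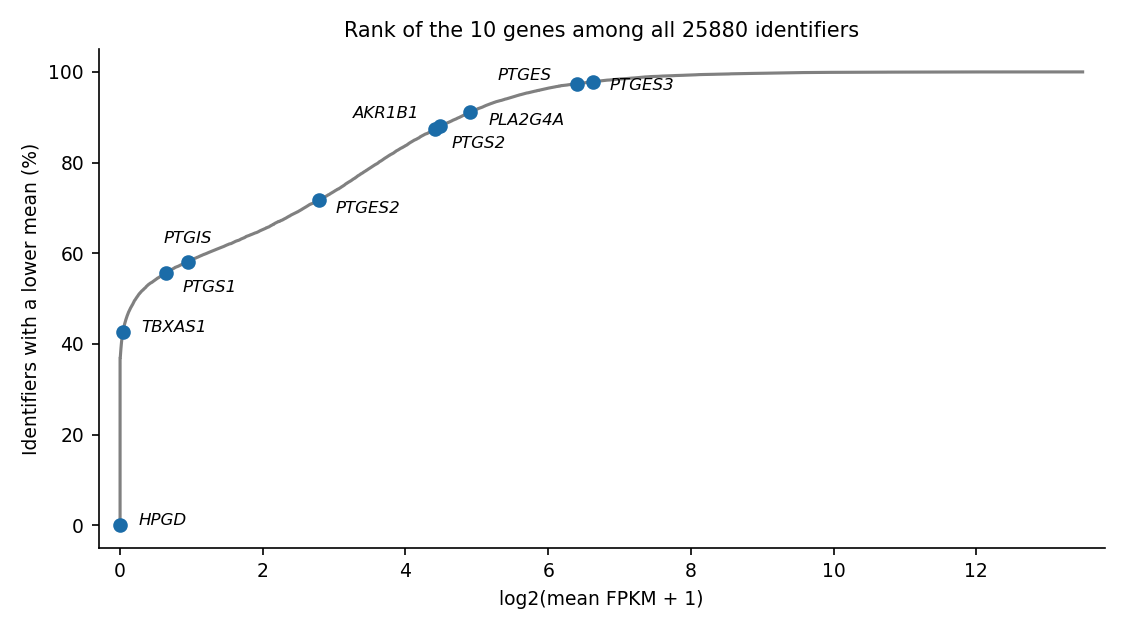
Share of all identifiers with a lower mean FPKM (vertical axis, in percent) against log2(mean FPKM + 1) (horizontal axis). The grey line holds all identifiers and the points are the 10 genes. PTGES3 and PTGES lie above 97.8% and 97.4% of identifiers, PTGS2 above 87.3%, and PTGS1 above 55.6%.

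The 2 libraries gave nearly the same level for the abundant enzymes. The coefficient of variation was under 5% in 6 genes, the 6 that reached 1 FPKM in both libraries, with 0.150% for PTGS2 and 4.87% for PLA2G4A. The median over the 10738 identifiers with a mean of 1 FPKM or more was 2.62%. PTGIS had the widest spread, 19.7%, and replicate 2 had 0.755 times the level of replicate 1. An exact two-sided binomial test on the recovered reads with Benjamini-Hochberg adjustment over 16327 identifiers called none of the 10 genes and 1.11% of the identifiers. Without adjustment, 3 of the 9 genes with reads had an exact binomial p under 0.05, against 10.2% of identifiers: PTGIS (p = 0.0118, adjusted p = 0.255), PLA2G4A (p = 0.0120, adjusted p = 0.257) and PTGES3 (p = 0.0153, adjusted p = 0.285). PLA2G4A was higher in replicate 2 and the other two in replicate 1. The test compares libraries, not conditions. It was run on the smallest possible reads, so it may miss differences where the true reads are more.

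**Figure D3:**
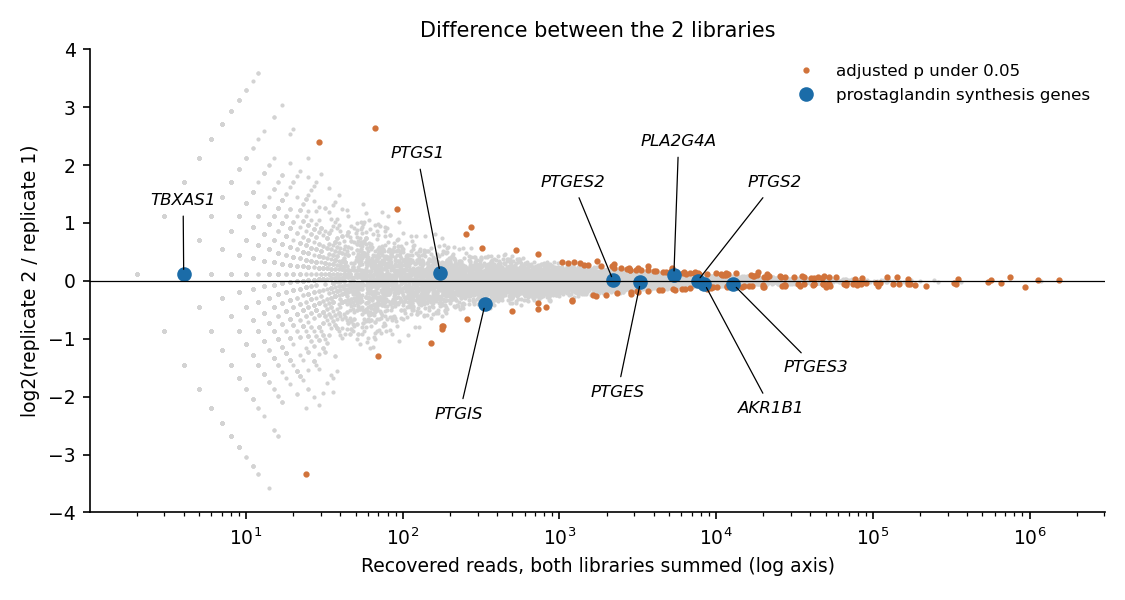
log2 ratio of replicate 2 over replicate 1 (vertical axis) against the recovered reads of both libraries (horizontal axis, log) for every identifier with reads in both. Large points are the 9 prostaglandin synthesis genes with reads and small orange points are identifiers with an adjusted p under 0.05. The 9 genes run from -0.40 for PTGIS to 0.14 for PTGS1, and none is called.

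Genes that supply, carry and sense these lipids were expressed beside the enzymes. In the other pathway lists, 69 of 109 measured genes reached 1 FPKM in both libraries, or 63.3%, also close to the share of identifiers with a symbol. Their median was 2.15 on the log2(FPKM + 1) scale, against 3.60 for the 10 enzymes. Of the 109 genes, 91 had reads, and HSP90AB1 alone differed between libraries, with 194 FPKM in replicate 1 and 187 FPKM in replicate 2 (adjusted p = 0.00054, exact binomial test).

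Alongside PLA2G4A, 13 of 27 measured genes for arachidonate release reached 1 FPKM in both libraries and 8 were listed at 0. The highest were PNPLA2, the adipose triglyceride lipase, at 38.9 ± 1.11 FPKM, and the monoacylglycerol lipases ABHD12 and ABHD6 at 13.6 ± 0.189 and 10.3 ± 1.59 FPKM (SD, n = 2 each). No other phospholipase A2 gene of the PLA2G families that was measured exceeded 1.51 ± 0.170 FPKM, the level of PLA2G6. PLA2G4A was thus the highest of the measured PLA2G genes. Phospholipase A2 genes of other families were PLAAT3 at 8.55 ± 0.0585 FPKM and PNPLA8 at 7.66 ± 0.427 FPKM (SD, n = 2 each). PLA2G4C, PLA2G12A and PLA2G15 had no matched identifier and were not analysed here.

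Of 14 genes for arachidonate supply and reacylation, 11 reached 1 FPKM in both libraries. The desaturases FADS2 and FADS1, which build arachidonic acid from linoleic acid, had 92.7 ± 0.428 and 53.8 ± 0.266 FPKM, and the elongase ELOVL5 had 49.5 ± 0.0138 FPKM. ACSL4, the acyl-CoA synthetase that prefers arachidonate, had 71.1 ± 1.82 FPKM, ACSL1 had 14.0 ± 0.188, and MBOAT7, which returns arachidonate to phosphatidylinositol, had 35.6 ± 0.231 (SD, n = 2 each).

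Of 7 measured genes for further prostanoid synthases and reductases, 4 reached 1 FPKM in both libraries. Both prostaglandin D synthase genes, PTGDS and HPGDS, were listed at 0, as was the carbonyl reductase CBR1. AKR1A1, an aldehyde reductase, had 14.7 ± 0.760 FPKM, and PRXL2B, a prostaglandin F synthase, had 2.19 ± 0.0821 (SD, n = 2 each). Among 5 membrane relatives of PTGES, 2 reached 1 FPKM: MGST3 at 32.1 ± 1.89 FPKM and MGST1 at 1.06 ± 0.0709, so PTGES, at 83.6 FPKM, stood above every measured relative.

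HPGD at 0 stood beside expressed genes for later breakdown and uptake. PTGR1 and PTGR3, reductases of the keto-metabolites that HPGD makes, had 16.8 ± 0.698 and 6.61 ± 0.263 FPKM, and 5 of the 6 genes of this list reached 1 FPKM in both libraries (SD, n = 2 each). Of 8 measured prostanoid receptors, 3 did so: TBXA2R, the thromboxane receptor, at 9.74 ± 0.513 FPKM, PTGFR, the prostaglandin F receptor, at 6.74 ± 0.314, and the prostaglandin E2 receptor gene PTGER2 at 6.29 ± 0.192. The prostacyclin receptor PTGIR had 0.578 ± 0.0095 FPKM (SD, n = 2 each).

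All 22 measured partners and regulators passed 1 FPKM in each library, and 21 averaged 10 FPKM or more. Many of them act in most cells. HSP90AA1 and HSP90AB1, the chaperones that p23 assists, had 496 ± 4.96 and 191 ± 5.08 FPKM, and the casein kinase genes CSNK2B and CSNK2A2, whose enzyme phosphorylates p23, had 137 ± 3.18 and 57.1 ± 0.162. ANXA1, an annexin that inhibits cytosolic phospholipase A2, had 128 ± 2.44 FPKM, and S100A10, which binds that phospholipase, had 97.5 ± 1.14. The kinase gene MAPK3, whose product phosphorylates the phospholipase, had 22.3 ± 0.565 FPKM (SD, n = 2 each).

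Among transcription factors known in human cells to act on PTGS2 or PTGES, RELA had 63.1 ± 0.541 FPKM, CEBPB 55.3 ± 2.26, EGR1 48.5 ± 0.854, NFKB1 26.2 ± 0.630 and SP1 13.9 ± 0.0870. Proteins that bind the PTGS2 message to stabilise it or hasten its decay were also encoded. HNRNPD had 126 ± 2.59 FPKM, KHSRP 87.2 ± 0.118, ZFP36L1 41.4 ± 0.107, the stabiliser ELAVL1 40.2 ± 0.301 and ZFP36 14.1 ± 0.214. AHSA1, MAPK14 and MKNK1 lay between 10.0 and 29.0 FPKM (SD, n = 2 each).

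**Figure D4:**
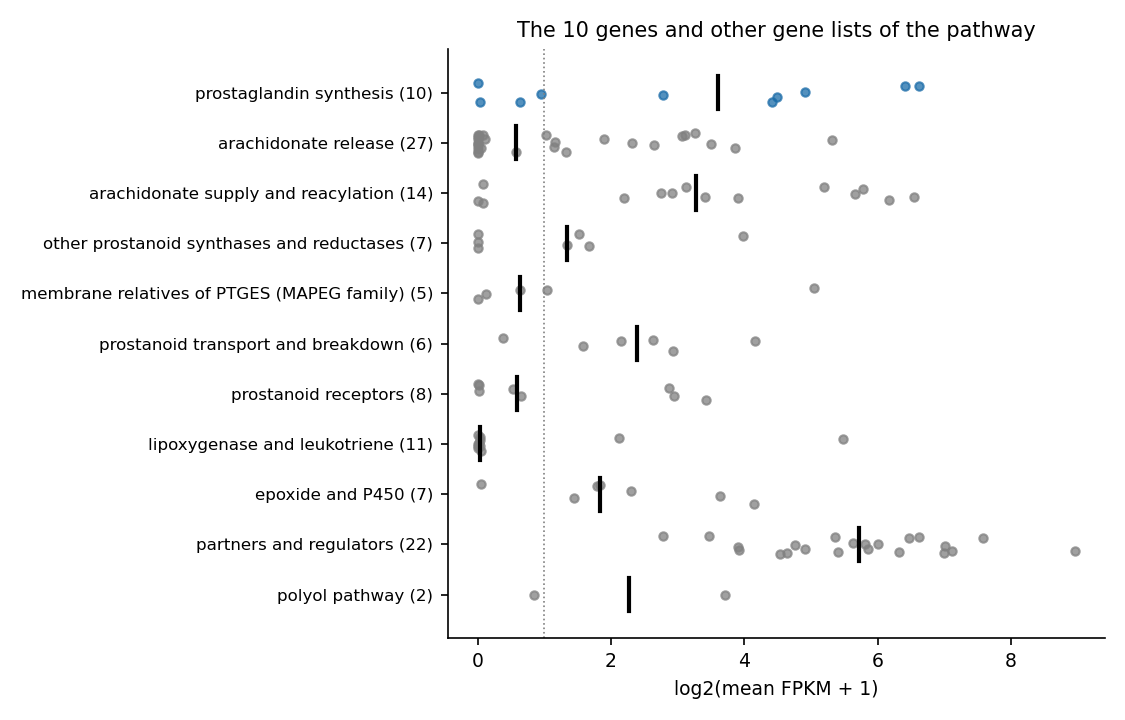
log2(mean FPKM + 1) of each measured gene by list, the 10 prostaglandin synthesis genes on top, with the number of genes in brackets, the list median as a black bar and 1 FPKM as the dotted line. The median is 3.60 for the 10 genes, 3.27 for arachidonate supply, 0.59 for the receptors, 0.03 for the lipoxygenase list and 5.72 for partners and regulators.

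Markers of other cell types of the ileum and of blood were read in the same libraries, and most were under 1 FPKM, with ETV1 the exception above 10 FPKM. Of 7 macrophage and leukocyte markers, 2 reached 1 FPKM in both libraries, CD14 at 2.29 ± 0.0775 FPKM and CD68 at 1.24 ± 0.102, and PTPRC and CD163 were listed at 0. The 7 summed to 3.74 and 3.73 FPKM in replicates 1 and 2. Of 3 measured platelet markers, GP9 (1.32 ± 0.192) and TUBB1 (0.717 ± 0.0489) were the highest, and all 3 summed to 1.93 and 2.15 FPKM. The mast cell list, 3 genes measured, held KIT at 0.573 ± 0.135 FPKM, with HDC and MS4A2 listed at 0. Of 4 endothelial markers, CDH5, KDR and TIE1 were listed at 0 and PECAM1 had 1.76 ± 0.231 FPKM. The epithelial and tuft cell list of 6 summed to 0.0397 and 0.0162 FPKM, with TRPM5 and EPCAM its only genes above 0. Of 5 fibroblast markers, PDGFRA (2.24 ± 0.0149) and DCN (2.20 ± 0.445) were the highest, and of 3 for interstitial cells of Cajal, ETV1 had 14.3 ± 0.353 and ANO1 0.792 ± 0.0387 FPKM (SD, n = 2 each). The part of such cells in the levels of the 10 genes was not tested.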

How the data were processed

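RNA-seq was done on 2 libraries of the PSI clone, the only group. TRIzol was used for total RNA and the NEBNext Ultra kit for libraries, per the labels' protocols. TopHat2 2.0.12 (aligner), HTSeq 0.6.1 (read counter) and the build Sscrofa11.1 are named by the submitters' processing notes. Not given in the sources used here are the annotation release, the strand setting and any filters. FPKM values were deposited by the authors with 1 column per library.

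A gene name table gave symbols for 14857 of 25880 identifiers, and RefSeq coordinates were joined by symbol alone. Whole reads were worked out from the steps in the FPKM values by taking the shortest length from 50 to 30000 bases giving a whole number in each library, with a tolerance of 1.2 times the rounding of the printed digits. The library totals were chosen among those giving whole reads for most sampled genes, as the ones matching the most mitochondrial protein genes to their RefSeq length. With them, all 16327 identifiers above 0 gave whole reads, and 11 of 12 mitochondrial protein genes gave their RefSeq length. Since both figures entered the choice of totals, they are no independent check of the recovery. Recovered reads are the smallest possible ones and summed to 90.8% of each total. For genes with more true reads, the intervals are too wide and the binomial p too large. The recovery and the binomial test were also run on simulated data, with results not reported here. The simulated lengths and rates came from the recovered ones, so that run cannot show whether true lengths and reads are larger. Intervals are 95% exact Poisson, and cover counting error only, since no molecular identifiers mark single molecules. Python 3.11.15, scipy 1.17.1 and statsmodels 0.14.6 were used.

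The genes and lists were chosen with earlier results of these data known. Named were all 10 genes, list genes averaging 10 FPKM or more, and the 2 highest of each list. Further genes named at 0 or for their rank (PLA2G6, PLAAT3, PNPLA8, PTGDS, HPGDS, CBR1, PTGER2, PTGIR, ALOX5, PTPRC, CD163, HDC, MS4A2, CDH5, KDR, TIE1, MYOCD, MYH11, COX2, ATP8, RPL29 and RPS27A) were chosen after their values were seen. The values of 1 list gene that the rule names are not reported here. Likeness of pattern was not assessed, since 1 group holds no pattern. Alternatives changed the detection level, pseudocount, filter and scaling, and left out each library.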

Additional observations from a re-analysis of the deposited data

How the results depend on the processing

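The count of the 10 genes at 1 FPKM in both libraries stayed within 1.5 times the main value of 6 in all settings tried, from 6 at 5 FPKM to 8 at 0.5 FPKM or after rescaling each library to a sum of 1000000. PTGIS and PTGS1 were the genes gained at 0.5 FPKM. Without replicate 2 the count was 7, and without replicate 1 it was 6. The median of the 10 genes was 3.47 with a pseudocount of 0.1 (all identifiers -2.00), 4.45 among the 8 genes averaging at least 0.1 FPKM (3.01 among such identifiers) and 4.95 after rescaling (0.52). The log2 difference of PTGS2 over PTGS1 was 4.96 with a pseudocount of 0.1 and 4.49 after rescaling. That of PTGES2 over PTGES was -3.62 as reported on the log2(FPKM + 1) scale, -3.81 with a pseudocount of 0.1 and -3.75 after rescaling. That of PTGIS over TBXAS1 was 0.91, and 3.005 and 1.72 under the same alternatives, by construction of the scale at values under 1 FPKM. No direction turned. The plain ratio of HPGD to PTGS2 was not computed, since HPGD is listed at 0. On the log2(FPKM + 1) scale the difference of HPGD over PTGS2 was -4.41 ± 0.0021 (SD, n = 2). With HPGD at 0, that value is set by the level of PTGS2 alone. The binomial test called 182 identifiers, or 233 among those averaging at least 1 FPKM and 187 with totals taken as the sum of recovered reads, and none of the 10 genes in any of them. Depth limits TBXAS1, with 2 reads per library. No paired analysis was possible because the 2 libraries form 1 group.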

Other observations

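Arachidonic acid has other fates than prostanoids. In the lipoxygenase and leukotriene list, 2 of 11 measured genes reached 1 FPKM in both libraries. LTA4H, the hydrolase of leukotriene A4 that also acts as an aminopeptidase, had 43.8 ± 0.817 FPKM, and ALOX15, a lipoxygenase, had 3.34 ± 0.0706 (SD, n = 2 each). ALOX5, the lipoxygenase that starts leukotriene synthesis, was listed at 0 in replicate 1 and had 0.0217 FPKM in replicate 2. In the epoxide and cytochrome P450 list, 6 of 7 measured genes passed that level, led by the P450 reductase gene POR at 16.6 ± 0.961 FPKM and the soluble epoxide hydrolase gene EPHX2 at 11.5 ± 0.551 (SD, n = 2 each). Of the sugar-handling partners of aldose reductase, SORD, the sorbitol dehydrogenase that takes up its product, had 0.795 ± 0.0399 FPKM, and KHK, ketohexokinase, had 12.1 ± 0.454 (SD, n = 2 each).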
